A study of Mus musculus with 24 samples.

Results

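The genes described here encode the nuclear subunits of the mitochondrial respiratory chain, measured in 24 mammary tumors of mice treated with the carcinogen DMBA. They were chosen by name alone, as probes whose gene name on the array begins as the subunit names of complexes I to V do (Nduf, Sdh, Uqcr, Cox and Atp5). The names matched 128 of 39429 probes and 85 genes, of which 83 passed the signal filter among 20975 genes tested. Of the 85, 35 belong to complex I, 4 to complex II, 8 to complex III, 19 to complex IV and 15 to complex V, and 4 match by name without being subunits (Cox4nb, Cox7a2l, Atp5s and Atp5sl). Cox7b2 and Cox8c did not pass, since tumor RNA exceeded a signal of 10 at their probes on 2 and 5 arrays.

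Each tumor was hybridized with a universal mouse reference RNA, pooled from 11 mouse cell lines, on its own 2-color Agilent array. All mice received DMBA, and the groups differed in diet and in when the tumor appeared. HFD mice ate a high animal fat diet throughout and LFD mice a low-fat diet, HFD-LFD mice ate the high-fat diet in peripuberty and the low-fat diet as adults, and LFD-HFD mice the reverse. There were 3 HFD Early, 6 HFD Late, 3 HFD-LFD Early, 3 HFD-LFD Late, 5 LFD Late and 4 LFD-HFD Late tumors, so early tumors (n = 6) came only from mice on the high-fat diet in peripuberty and late tumors (n = 18) from all diets. The labels do not say whether every tumor came from its own mouse, so p-values measure the spread between these tumors only.

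As background, complexes I to IV pass electrons from NADH and succinate to oxygen while complexes I, III and IV pump protons, and complex V, the ATP synthase, uses the proton gradient to make ATP. Complex I has a catalytic core and many accessory subunits around it, complex IV has isoforms typical of muscle, lung or testis, and complex II also works in the citric acid cycle. The subunits encoded by mitochondrial DNA are not among these genes. Transcripts of the subunits are abundant in most cells: the median member stood at the 95.3rd percentile of brightness among the genes tested, and the tumor signal of 83 of 83 stood well above background on every array on which it was read.

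Values are log2 ratios of cyanine 5 to cyanine 3, which the sample labels give as tumor over reference. The study's methods text places the reference in cyanine 5, so the channels were checked. The reference is the same RNA on every array, and over 27323 probes log2 cyanine 5 varied between arrays by a median SD of 0.47, with 0.19 for cyanine 3. The Y chromosome genes Ddx3y and Eif2s3y, which female tumors lack, had ratios of -5.04 to -2.31 in 40 of 40 measured values. Ratios below are therefore tumor over reference, opposite to the methods text, and a ratio compares a tumor with cultured cell lines, not with normal gland. The percentage of probes well above background in the tumor channel was 66.1% to 89.2% per array. Cyanine 5 signal was lost on rows of the 7 arrays of slides 6 and 7, all late tumors, and spots there were set missing, which left 36 of the 83 genes without a value on some of these arrays and every gene with at least 20 arrays.

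Early tumors had lower ratios than late tumors for many subunits under loess normalization within each array, but this direction depended on how the arrays were scaled, and with arrays only centred on their median the members were higher. Of 83 genes, 27 were called in early against late (limma, adjusted p under 0.05), against 17.8% of all genes tested. Of these, 26 were lower in early tumors (31.3% of the members, against 10.8% of all genes) and 1 was higher (against 6.92%), and that one, Cox4nb (now Emc8), is a subunit of an endoplasmic reticulum complex that matches by name only. At an unadjusted p under 0.05, 46 members were lower and 3 were higher, 49 in all, against 33.6% of all genes in either direction and 20.3% lower. The median difference over the 83 genes was -0.28 log2 units and that over all genes was -0.06. With median centring, 7 members were called higher and 0 lower, where 21% of all genes were called higher and 4.46% lower. With the tumor channel alone, 1 was called higher and 1 lower, against 7.16% and 5.25% of all genes.

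**Figure D1:**
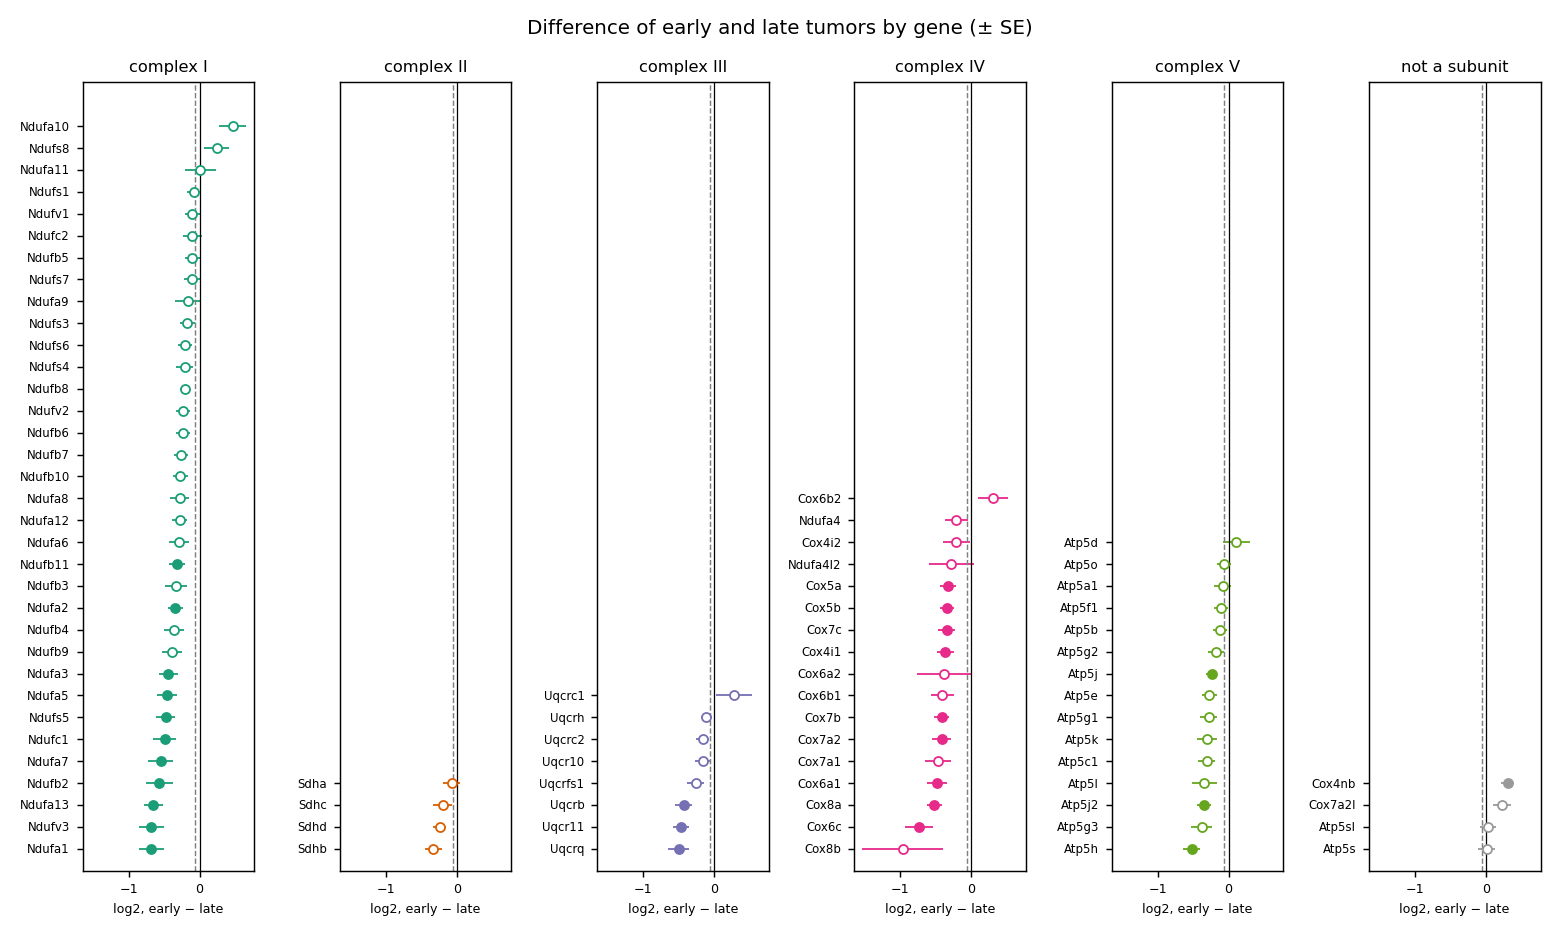
Difference between early (n = 6) and late (n = 18) tumors in log2 units for the genes tested that are reported here, by complex, after loess normalization. Circles are limma estimates with their SE, filled where the adjusted p was under 0.05, and the dashed line is the median of all genes, -0.06. With median centring 7 members were called higher and 0 lower, against 21% and 4.46% of all genes.

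Complex IV, cytochrome c oxidase, the enzyme that reduces oxygen, had the largest share of calls, with 9 of 17 tested genes lower (52.9%). Over all genes, 10.8% were called lower. Its median difference was -0.38, and the median over its genes was -1.41 ± 0.10 (SD, n = 6) in early tumors and -1.08 ± 0.27 (n = 18) in late tumors. Cox6c, a small subunit with no tissue isoform, read -1.71, -1.78 and -1.66 in the HFD Early tumors and -1.58, -1.10 and -1.11 in the HFD-LFD Early tumors. Its late values ran from -1.51 through a median of -0.84 to -0.12 over 14 tumors. The early and late tumors overlapped, with a fitted difference of -0.74 ± 0.20 (SE, adjusted p = 0.0174), a level 40.1% lower.

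Cox8a, the ubiquitous form of the smallest nuclear subunit of complex IV, was the one member whose measured early and late values did not overlap. It had no value in the late tumors of slide 6, and the gap was narrow, from -1.12 to -1.06. The share of all genes without overlap is not given here. Its early ratios were -1.23, -1.36 and -1.12 in HFD and -1.23, -1.26 and -1.23 in HFD-LFD tumors. The late ratios were -1.06, -0.76 and -0.25 at the lowest, median and highest of 14 tumors. The difference was -0.52 ± 0.10 (SE, adjusted p = 0.00307), which is +0.13 with median centring and +0.28 when the dimmed rows are kept. Among the others called lower, Cox4i1, a regulatory subunit that binds ATP, differed by -0.37 ± 0.12 (adjusted p = 0.0394), Cox5a by -0.33 ± 0.11 (0.0459) and Cox5b, which holds zinc, by -0.34 ± 0.10 (0.0217). Cox6a1 (-0.48), Cox7a2 (-0.42), Cox7b (-0.42) and Cox7c (-0.35) were also called lower, with adjusted p of 0.0198, 0.0345, 0.0138 and 0.0448. With median centring, 7 of the 9 (Cox8a, Cox4i1, Cox5a, Cox5b, Cox6a1, Cox7b and Cox7c) had a difference above 0.

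Complex I, NADH dehydrogenase, had 11 of 35 genes called lower (31.4%), and all 11 were accessory subunits, 11 of 28 tested. Over all genes, 10.8% were called lower and 17.8% in either direction. None of the 7 nuclear core subunits, which carry the flavin, the iron-sulfur clusters and the quinone site, was called. Among them, Ndufs1 (-0.08), Ndufs8 (0.24), Ndufv1 (-0.10) and Ndufv2 (-0.23) had adjusted p of 0.104 to 0.596. The median difference was -0.10 for the core and -0.30 for the accessory subunits, a gap that was not tested. The median of the complex was -1.24 ± 0.12 (SD, n = 6) in early and -0.94 ± 0.19 (n = 18) in late tumors. Late tumors on slides 6 and 7 again lacked some of its genes.

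Ndufa13, also known as GRIM-19 and needed for assembly of complex I, read -1.72, -1.61 and -1.86 in HFD Early and -1.47, -1.21 and -1.41 in HFD-LFD Early tumors. Late tumors read -1.48, -0.88 and -0.48 at the lowest, median and highest of 18. Every HFD Early value was below every late value, while the HFD-LFD Early values overlapped the late ones. The difference was -0.65 ± 0.14 (SE, adjusted p = 0.00349) and stayed below 0 under median centring (-0.21). Ndufa1, an X-linked subunit of the membrane arm, differed by -0.68 ± 0.18 (adjusted p = 0.0108). Its early values were -1.32, -1.10, -1.24, -1.22, -0.97 and -0.83, against -1.19, -0.35 and 0.17 in late tumors.

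Ndufv3, a small subunit beside the flavin site, differed by -0.68 ± 0.18 (adjusted p = 0.013), and its lowest values, -2.21 and -2.03, were 1 early and 1 late HFD tumor. Ndufb2 (-0.57), Ndufa7 (-0.55), Ndufc1 (-0.49), Ndufs5 (-0.48), Ndufa5 (-0.46), Ndufa3 (-0.44), Ndufa2 (-0.34) and Ndufb11 (-0.32) were the others, with adjusted p of 0.0146 to 0.0466. Ndufb2 read -1.63, -1.76 and -1.90 in HFD Early and -0.99, -0.77 and -0.85 in HFD-LFD Early tumors, and the latter lay within the late range of -1.34 to -0.20.

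Complex III, which hands electrons to cytochrome c, had 3 of 8 genes called lower (37.5%), against 10.8% of all genes. All were small subunits: Uqcrq by -0.50 ± 0.15 (adjusted p = 0.0255), Uqcr11 by -0.47 ± 0.11 (0.00534) and Uqcrb by -0.43 ± 0.12 (0.0198). Uqcrb was the tightest in early tumors, from -1.30 to -1.18, while 18 late tumors spread from -1.61 to -0.28. The core proteins Uqcrc1 and Uqcrc2 (0.28 and -0.16) and the Rieske iron-sulfur protein Uqcrfs1 (-0.26) did not pass, with adjusted p of 0.45, 0.241 and 0.124.

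Complex V had 3 of 15 genes called lower (20%), against 10.8% of all genes called lower and 17.8% called in either direction. These were Atp5h, a subunit of the stalk, by -0.52 ± 0.12 (adjusted p = 0.00594), Atp5j2 by -0.35 ± 0.10 (0.021) and Atp5j by -0.24 ± 0.08 (0.0491). Atp5h read -1.06, -1.25 and -1.23 in HFD Early and -0.89, -0.74 and -0.89 in HFD-LFD Early tumors, against -1.10, -0.49 and -0.05 at the lowest, median and highest of 18 late tumors. None of the 5 subunits of the catalytic F1 head was called: Atp5a1 (-0.08), Atp5b (-0.12), Atp5c1 (-0.31), Atp5d (0.11) and Atp5e (-0.27) had adjusted p of 0.0563 to 0.711. Complex II, succinate dehydrogenase, had 0 of 4 genes called, with 2 at an unadjusted p under 0.05, where 33.6% of all genes had one. Sdhb, the iron-sulfur subunit, differed by -0.33 ± 0.12 (adjusted p = 0.0615), the membrane anchors Sdhc and Sdhd by -0.20 and -0.24, and the flavoprotein Sdha by -0.07.

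**Figure D2:**
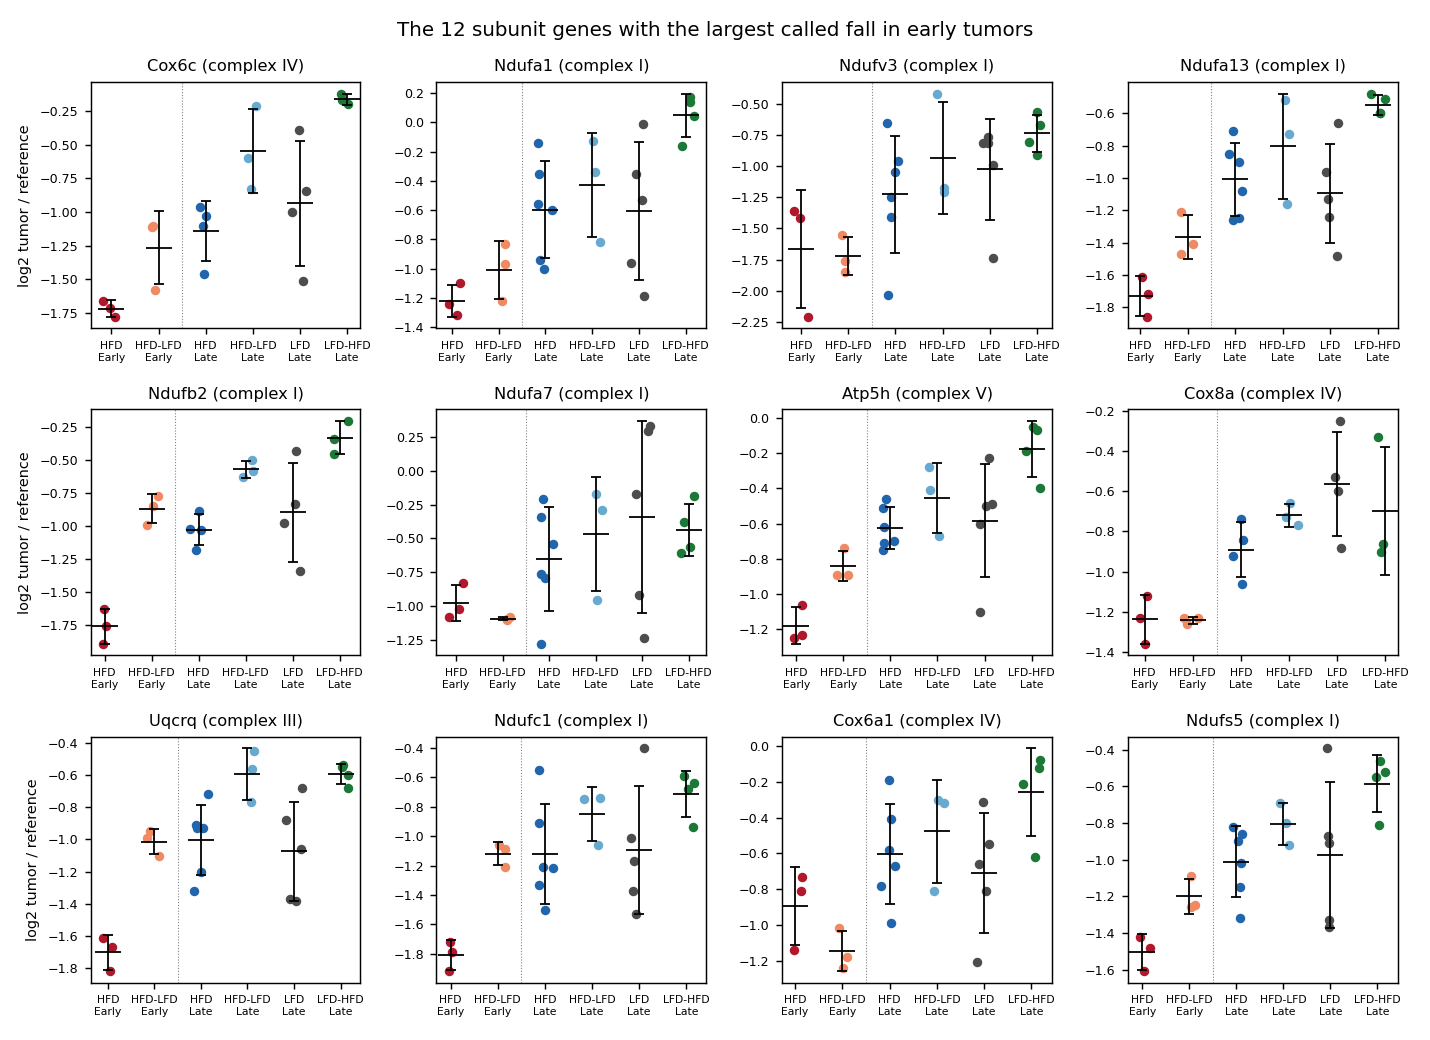
Log2 ratio of tumor to reference in each tumor for the 12 subunit genes with the largest called falls, by diet and onset. Points are tumors and bars are the mean ± SD of each group; after loess normalization early tumors were lower for all 12, and with median centring the differences of Cox8a and Cox6a1 were 0.13 and 0.03.

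The scaling of the arrays bears on every direction above. Loess without background correction gave 27 members lower and 1 higher, and the scanner software's own log ratio gave 20 and 1. These fits called 16.1% and 14.1% of all genes. Median centring moved the median of all genes to 0.22, from -0.06 under loess, and the members' median to 0.16, so that they lay 0.22 log2 units below all genes under loess, 0.05 below under median centring and 0.09 below with the tumor channel alone. Of the 26 genes called lower, 15 stayed below 0 under each of 5 scalings, 25 lay below the median of all genes under median centring, and 0 were called lower there. Brightness moved with this difference between scalings. Under median centring the dimmest 4195 genes differed by -0.13 between early and late tumors and the brightest 4195 by 0.36, and 78 of the 83 members lie among the brightest, where their own median was 0.15. Under loess the brightest 4195 genes stood at -0.05 and the 78 members at -0.28, and with the tumor channel alone at 0.03 and -0.12.

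**Figure D3:**
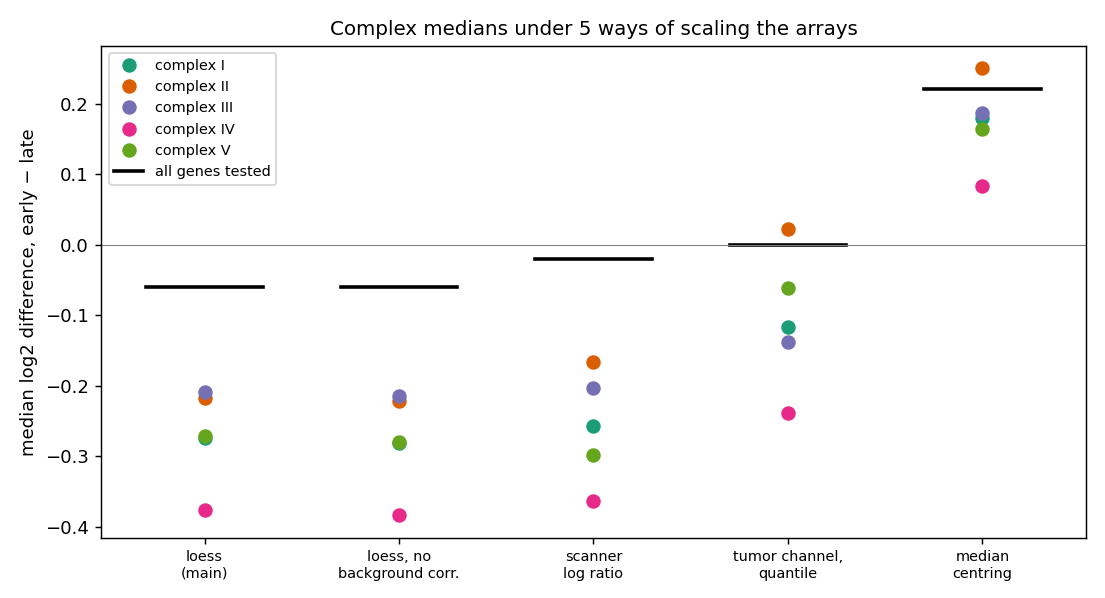
Median log2 difference between early and late tumors for the genes of each complex (points) and for all genes tested (bars) under 5 ways of scaling the arrays. Complex medians ran from -0.38 to -0.21 under loess and from 0.08 to 0.25 under median centring, where all genes stood at 0.22.

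Within HFD, 3 early against 6 late tumors, 14 of 83 members were called, all lower, against 13.3% of all genes called, 7.46% lower and 5.89% higher. At an unadjusted p under 0.05 there were 33, against 30.2%. Under median centring 10 were called higher and 0 lower, where 16.4% of all genes were called in either direction. The median was then 0.16 for the members and 0.24 for all genes. All HFD Early tumors were on slide 2, which held no late tumor, and with slide as a random block 2 of 83 members were called, against 2.11% of all genes. The 14 were Uqcrq, Ndufa5, Ndufa13, Ndufb2, Ndufb7, Cox5a, Atp5h, Ndufb4, Sdhb, Ndufc1, Ndufa8, Ndufb10, Cox4i1 and Uqcr11. The 5 smallest p-values belonged to Uqcrq (-0.70 ± 0.15, SE, adjusted p = 0.00565), Ndufa5 (-0.78 ± 0.17, 0.00845), Ndufa13 (-0.72 ± 0.16, 0.00907), Ndufb2 (-0.73 ± 0.16, 0.00994) and Ndufb7 (-0.44 ± 0.11, 0.0132). Without 1 of the HFD Early tumors, replicate 1, 2 or 3, the count was 7, 6 or 4, and the shares of all genes called in those fits are not given here.

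Within HFD-LFD, 3 early against 3 late tumors, 0 members were called with limma, against 0.906% of all genes (0.367% lower and 0.539% higher), and 29 had an unadjusted p under 0.05, all lower, where 15.8% of all genes had one and 8.73% were lower. The members' median was -0.30, with -0.06 over all genes, and 0.29 with 0.23 under median centring. The difference between the changes within HFD and HFD-LFD was called for 0 members and 0% of all genes, and 0 members had an unadjusted p under 0.05, where 8.15% of all genes had one, 3.99% with the lower change in HFD. For Ndufa5, -0.78 within HFD and -0.33 ± 0.22 within HFD-LFD, the difference between them was -0.45 ± 0.28 (adjusted p = 0.673), an error too wide to tell whether the changes are alike. The 2 contrasts share no array: under loess 64 of 83 members (77.1%) were lower in early tumors in both, against 41.5% of all genes. Under median centring 23 of 83 were lower within HFD and 6 within HFD-LFD.

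**Figure D4:**
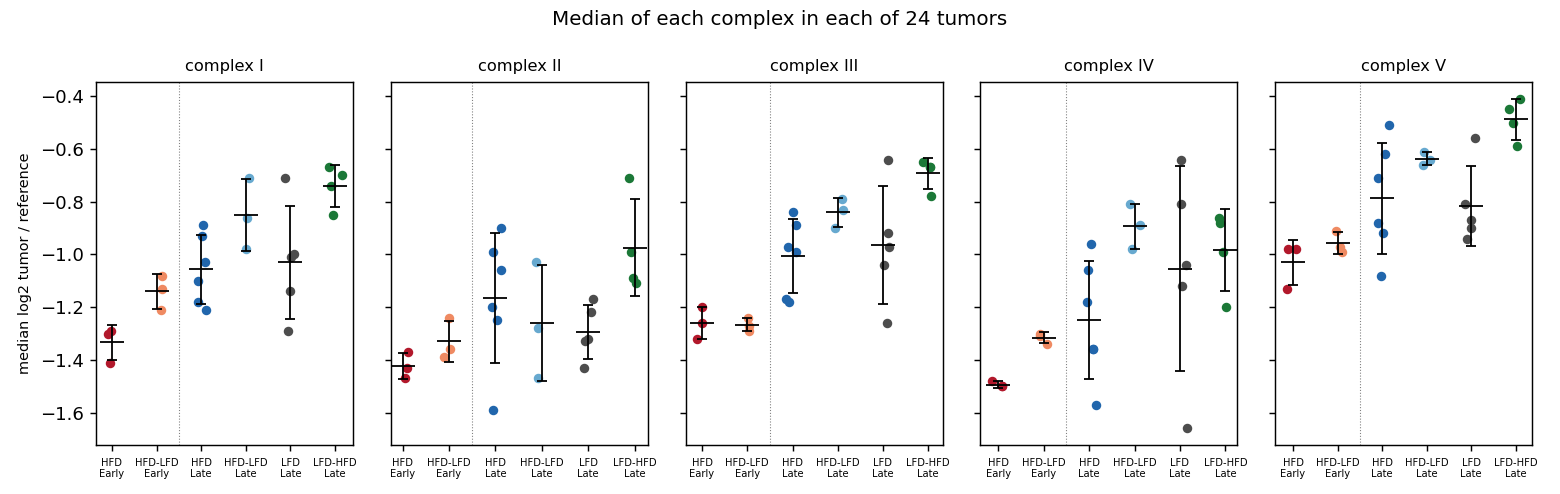
Median log2 ratio of tumor to reference over the genes of each complex in each of the 24 tumors, by diet and onset, after loess normalization. In late tumors of slides 6 and 7 the median covers only the genes with a value there. Points are tumors and bars the mean ± SD; for complex III the 6 early tumors lay between -1.32 and -1.20 and the 18 late tumors between -1.26 and -0.64, and under median centring the median difference of this complex turned to 0.19.

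The arrays were scanned in 3 sessions, of which 2 held early tumors, and the difference was taken within each. In session 1 (3 early, 8 late) 70 of 83 members (84.3%) were lower in early tumors, against 58.3% of all genes, and 6 were called, against 7.27% of all genes. In session 2 (3 early, 3 late) 75 (90.4%) were lower, against 54.7%, and 14 were called, against 11.7%. The medians were -0.29 and -0.31. All these session values are under loess, and with median centring over all arrays 17 of 83 members were lower in early tumors. The early tumors of the sessions are those of the comparison over all arrays, so the session values are no replication of it. Slide was more nearly confounded with onset, since the early tumors were on slides 2 and 4 and only slide 4 also held a late tumor. With slide as a random block 12 members were called, 11 of them lower, and as a fixed block 0, against 8.86% and 0.348% of all genes. Within HFD, and within HFD-LFD, no slide held tumors of both onsets. Leaving out each array in turn gave 12 to 32 calls for early against late, with 15, 12 and 13 when an HFD Early tumor (replicate 1, 2 or 3) was left out, and 10 of the 26 genes were called in all 24 such fits. The shares of all genes called in these fits are not given here.

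HFD (n = 9) and LFD (n = 5) tumors differed in 0 members, as in 0% of all genes tested with limma, and 7 members had an unadjusted p under 0.05, all lower in HFD, against 4.8% of all genes and 3.05% lower. Cox6b1, a subunit of complex IV on the outer face of the membrane, read -1.70, -1.81 and -1.53 in HFD Early and -1.39, -1.52, -1.74 and -1.22 in the HFD Late tumors with a value, and -0.81, -0.93, -0.95 and -0.57 in LFD tumors. The groups did not overlap, and the share of all genes without overlap is not given here. The difference was -0.74 ± 0.14 (SE, unadjusted p = 0.000275, adjusted p = 0.762). Cox7c (-0.51), Ndufa6 (-0.47), Ndufv2 (-0.36) and Cox8a (-0.47) followed, with adjusted p of 0.909 to 0.948; these 5 were named after their values were seen. None of the 5 had a value on slide 6, so their LFD values came from slide 1 and their HFD values from slides 2 and 3, and diet and slide cannot be told apart. The HFD tumors also included 3 early ones while all LFD tumors were late, so onset is mixed into this comparison. With late HFD tumors only, 0 members were called, as were 0% of all genes. The members' median was then -0.04, where it was -0.12 with the early tumors included.

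Among late tumors alone, 7 of 83 members (8.43%) were called for any difference between the 4 diet groups by limma's F-test, against 2.59% of all genes, and 24 had an unadjusted p under 0.05, against 20.9%. They were Ndufa9, Atp5l, Ndufb4, Atp5g3, Cox5a, Ndufb3 and Uqcr10, with adjusted p of 0.00678, 0.0154, 0.0231, 0.0324, 0.0338, 0.0484 and 0.0497. For 6 of them, all but Cox5a, both groups that switched diet had higher means than both groups on 1 diet. Ndufa9, an accessory subunit near the quinone site, read -1.11, -1.13 and -0.86 in HFD-LFD and -0.98, -1.12 and -1.04 in LFD-HFD tumors. It read -1.72, -1.83, -1.86 and -1.57 in HFD and -1.84, -1.70, -1.67 and -1.84 in LFD tumors, with no overlap between switched and unswitched diets. How many of all genes lack such overlap is not given here.

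Atp5l, subunit g of the ATP synthase, ran from -0.35 to 0.05 in 7 tumors of switched diets and from -1.22 to -0.40 in 11 of unswitched diets. These ranges did not overlap either, but the gap, from -0.40 to -0.35, was narrow. Ndufa9 and Atp5l were picked by the F-test on these same values, so their lack of overlap adds no support to it. Cox5a was lowest in LFD tumors, from -1.86 to -1.56, and highest in LFD-HFD tumors, from -1.32 to -1. Scan session moved with this pattern: the late tumors on 1 diet were in session 1 except for 3 in session 3, and those that switched were in sessions 2 and 3. With session as a fixed block 0 of the 64 members that could be fitted were called. That fit called only 2 of 15568 genes (0.0128%), so its 0 says little about the members. For Ndufa9 and Ndufb3, which had no value on slide 6, diet and session cannot be told apart. With slide as a random block the count was also 0, against 0.0906% of all genes, and the adjusted p of Ndufa9 was 0.0649. Leaving out single arrays gave 2 to 10 calls, and 2 without LFD-HFD Late replicate 2 or replicate 4. For those fits the shares of all genes called are not given here.

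**Figure D5:**
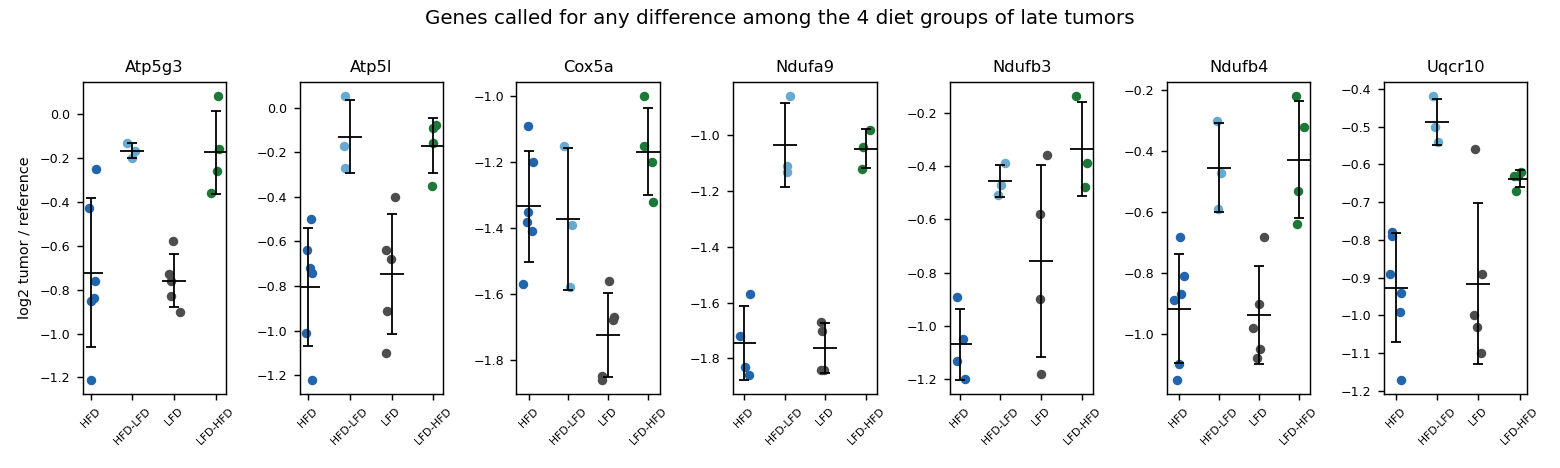
Log2 ratio of tumor to reference in late tumors of the 4 diet groups for the 7 genes called for any difference among them. Points are tumors and bars the mean ± SD; Ndufa9 lay between -1.13 and -0.86 in the groups that switched diet and between -1.86 and -1.57 in those that did not.

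Of the tissue isoforms, 6 of 8 could be tested and 0 were called in early against late, where 17.8% of all genes were called. Cox6a2, Cox7a1 and Cox8b, the heart and skeletal muscle forms, were far below the reference in these tumors. The differences of early from late were -0.38 ± 0.38, -0.47 ± 0.18 and -0.97 ± 0.57 log2 units (SE), with adjusted p of 0.511, 0.0651 and 0.239. Cox8b ranged from -8.25 to -4.16 in early and from -6.72 to -3.22 in late tumors. Skeletal muscle markers (12 of 12 tested, 1 called lower) averaged -5.61 to -2.74 per tumor in early and -4.94 to -1.61 in late tumors. The part of muscle tissue in these values was not tested. Ndufa4l2, which replaces Ndufa4 under low oxygen, Cox4i2, the lung form, and Cox6b2, the testis form, differed by -0.28, -0.21 and 0.31. Of their ubiquitous counterparts 4 of 6 were called lower (Cox4i1, Cox6a1, Cox7a2 and Cox8a), against 10.8% of all genes. Cox6b1 (-0.41, adjusted p = 0.0706) and Ndufa4 (-0.21, 0.366) were not.

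Lists of genes that build or feed the chain were also counted. Of 47 assembly factors tested 5 were called lower in early tumors and 0 higher, near the 10.8% of all genes called lower, with a median of -0.17. Under median centring 5 were called higher and 0 lower, where 21% of all genes were called higher. Coa3, an assembly factor of complex IV, differed by -0.36 ± 0.08 (SE, adjusted p = 0.00419), Tmem126b, of complex I, by -0.45 ± 0.12 (0.013) and Cmc1, of complex IV, by -0.52 ± 0.14 (0.016). Of 19 electron carriers and coenzyme Q genes 4 were called lower, against the same 10.8%, among them Coq8b (-0.73 ± 0.15, adjusted p = 0.00276) and both subunits of the electron transfer flavoprotein, Etfb (-0.61 ± 0.13, 0.00386) and Etfa (-0.43 ± 0.10, 0.00577), and these 3 were below 0 under median centring as well. Of 78 mitochondrial ribosomal proteins 6 were called lower, a share below 10.8%, with a median of -0.06, equal to that of all genes, and 14 were called higher and 0 lower under median centring.

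Of 18 citric acid cycle genes 0 were called by limma, against 17.8% of all genes, with a median of -0.13. Ogdh (-0.46, adjusted p = 0.0846), Pcx (-0.81, 0.126) and Idh3a (0.23, 0.131) had the smallest p. Of 18 regulators of mitochondrial biogenesis 1 was called lower and 1 higher, against 10.8% and 6.92% of all genes. Esrra, a nuclear receptor that binds promoters of respiratory genes, differed by -0.36 ± 0.11 (SE, adjusted p = 0.029) and by 0.00 under median centring. Twnk, the mitochondrial DNA helicase, differed by 0.60 ± 0.20 (adjusted p = 0.0393) and by 1 under median centring. Nrf1 differed by 0.24 ± 0.10 (adjusted p = 0.0952).

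Markers of cell types and of proliferation were counted in the same comparison, and in bulk tumors fewer cells of a type and less RNA per cell cannot be told apart. Of 8 proliferation genes 6 were called higher in early tumors, against 6.92% of all genes, and of 6 luminal epithelial markers 3 were called lower, against 10.8%. Under median centring these were 8 higher and 2 lower, and with the tumor channel alone 5 and 2. The mean of the proliferation genes per tumor was 0.11 to 0.87 in early and -1.25 to 0.93 in late tumors, and that of the luminal markers -0.27 to 2.58 and -2.04 to 3.84. The ranges of early and late tumors overlapped for both. Of 8 squamous markers 0 were called by limma, with a median difference of 1.37, and 3 were called higher under median centring; their mean per tumor was -2.17 to 0.43 in early and -4.44 to 3.93 in late tumors. Of 6 fibroblast markers 1 was called lower under loess, 1 under median centring and 1 with the tumor channel alone. Of 6 macrophage markers 1 was called higher, of 5 basal epithelial markers 1 lower, and of the white and brown adipocyte, T and B cell, endothelial and pericyte markers 0 were called by limma under loess. The part of any of these in the subunit values was not tested.

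Several genes were read by more than 1 probe. Of 29 such genes, 5 had probes that differed in sign in early against late. With each probe tested by itself, 1 of these probes was called for 2 genes. For Ndufb11 the probes gave -0.32 and -0.29, and another, far dimmer, gave 0.35 (adjusted p = 0.15). For Cox7c they gave -0.35, -0.46 and, for the dimmest, 0.14. Atp5j, called lower above, gave -0.24 at its bright probe (adjusted p = 0.0506 when tested by itself) and 0.02 (0.922) at a far dimmer one. For Ndufv3 the brightest probe gave -0.68, while dimmer ones gave -0.11 (adjusted p = 0.807) and -0.20 (0.336). The brightest probe of Atp5k lies on chromosome Y (1599617 to 1599676 on mm9) in the array's annotation and another on chromosome 5 (108862263 to 108862322), and they gave -0.30 and -0.36. Many subunit genes have near-identical processed copies in the genome, which a probe to the transcript cannot set apart. The probes of the genes first described lie on mm9 at chromosome 15, 35861751 to 35861810 (Cox6c), chromosome 19, 7289652 to 7289708 (Cox8a), chromosome 8, 72418102 to 72418161 (Ndufa13), and chromosome 6, 126771996 to 126772055 (Ndufa9), all on the minus strand and designed to the messenger RNA.

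Promoters of subunit genes are known for sites of NRF1, ETS factors and YY1, and RefSeq promoters on GRCm38.p6 (250 bases before to 50 after the start, 1 per gene) were searched on both strands for CGCATGCG (the core of the NRF1 site), CCGGAAG (ETS) and AAGATGGCG (YY1), none of which holds another. Of the 79 subunit genes tested, 65 had a promoter in the table. The letters occurred in 8 (12.3%), 15 (23.1%) and 6 (9.23%) of these, against 1.91%, 9.12% and 1.49% of 27025 promoters. Any of the 3 occurred in 6 of 21 genes called lower in early tumors (28.6%) and in 19 of the other 44 (43.2%). The 3 occurrences among called genes whose surrounding bases lay wholly before the start are shown, 30 bases each, 5′ to 3′ on the strand of the gene, with the match in capitals:
Cox6a1, NRF1 core, chr5:115349101-115349130, minus strand: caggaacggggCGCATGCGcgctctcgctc
Atp5h, ETS core, chr11:115419939-115419968, minus strand: caaggagagaaCTTCCGGcaactctcttcc
Uqcr11, ETS core, chr10:80406869-80406898, minus strand: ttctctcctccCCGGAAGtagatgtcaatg
A match describes letters in the reference sequence, and no binding was measured here.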

How the data were processed

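RNA of 24 tumors and a common reference was read on 2-color Agilent arrays. For each dye the deposited intensity columns give mean spot brightness, median local background and a value with background removed. The deposited log10 column gives the dye-normalized ratio of Cy5 to Cy3 from the scanner software. Per the labels the software was Agilent Feature Extraction 8.5.1.1, and per the file headers it was version 11.0.1.1. The authors' filter, Lowess normalization and imputation are not in these files. Probe positions are on mm9.

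Limma 3.58.1 (R 4.3.3) corrected background by normexp (offset 50), loess was applied to the ratios of every array, and outlier spots and the rows of lost Cy5 signal (bands of 10 rows) were set missing and left so. A probe was kept if each dye, after background removal, exceeded 10 on 80% or more of its arrays, which left 27323, and the brightest stood for each gene. Comparisons were limma fits on the log2 scale with Benjamini-Hochberg adjustment over 20975 genes at 0.05: early against late over 24 arrays, HFD against LFD over 14, and contrasts of 6 group means. Block fits kept a gene only where its missing values left every contrast estimable, a rule added after block counts had been seen. Spots with a local-background flag were first set missing too, which dropped bright probes of the members, and this was changed after the first counts had been seen; the earlier setting is an alternative.

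Members, lists, tests and most alternatives were chosen with earlier results of these data known. Genes named were the largest called falls, the core subunits of each complex, the tissue isoforms and their counterparts, up to 5 called genes of each other comparison, up to 3 of each other list, and genes whose probes disagreed. The alternatives were imputation of missing values with dimmed rows missing or kept, median centring, loess without background correction, tumor signal by itself, the scanner's ratio, other filters, other ways to combine probes, array weights, a variance trend, slide or scan session as a block, single sessions, slides 6 and 7 left out, late HFD tumors alone, an unadjusted p, and each array left out. The fits were tested on simulated data. Values of 1 gene are not reported here. No column of the authors' own comparisons was used, and the number of arrays limits the precision. No pairing was used, since the labels pair no tumors.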

Additional observations from a re-analysis of the deposited data

Results flagged for a closer look

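In groups of 4 to 6 tumors, 169 sets of values were searched for a tumor standing apart by Dixon's ratio, and 7 did, where chance gives about 1 in 20. Among LFD tumors, Atp5j2 was -0.48 in replicate 5 (the others -0.91 to -0.79), Cox4i2 was -1.32 in replicate 3 (0.09 to 0.29), Ndufv3 was -1.74 in replicate 4 (-0.99 to -0.77), and in replicate 2 Cox7c was -1.11 (-0.77 to -0.74) and Cox6a2, the muscle form, was -3.44 (-6.15 to -5.66). Among LFD-HFD tumors Cox7a2 was -0.63 in replicate 2 (-0.79 to -0.77), and the median of complex III was -0.78 in replicate 3 (-0.67 to -0.65). The mean of the skeletal muscle markers in the LFD tumors ran from -4.94 to -1.61.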

How the results depend on the processing

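Apart from leaving out arrays, 160 alternative values stayed within 1.5 times the count, or within the spread of a complex median, and the others are given here. The count for early against late, 27, became 49 at an unadjusted p, 7 under median centring (all higher), 2 with the tumor channel alone, 12 with slide as a random and 0 as a fixed block, 42 with session as a block, 6 and 14 within sessions 1 and 2, and 14 with local-background flags set missing, which was chosen after seeing the data. In the order given, 33.6%, 25.5%, 12.4%, 8.86%, 0.348%, 26.6%, 7.27%, 11.7% and 16.8% of all genes were called. Within HFD, 14, all lower, became 10 under median centring, all higher, 33 at an unadjusted p, 9 with dimmed rows kept, 6 with the scanner's ratio and with the tumor channel, 22 of 126 probes tested singly, 35 with array weights (where 43.3% of all genes were called), 2 with slide as a random block and 6 within session 1. In the order given, 16.4%, 30.2%, 7.37%, 10.7%, 5.98%, 13.7% (of probes), 43.3%, 2.11% and 8.52% of all genes were called. With slide as a fixed block this comparison could not be fitted. Within HFD-LFD, 0 became 29 at an unadjusted p, 13 with array weights (11.4% of all genes), 1 with slide and 1 with session as a fixed block and 2 within session 2. In the order given, 15.8%, 11.4%, 0.346% (66 members tested), 2.79% and 7.87% of all genes were called. HFD against LFD gave 7 at an unadjusted p and 0 otherwise. Among late diet groups, 7 became 24 at an unadjusted p, 1 with dimmed rows kept and without slides 6 and 7, 11 with median centring, 36 with array weights (27.7% of all genes), 4 with a variance trend and with background flags set missing, and 0 with slide or session as a block. Before the blocks, 20.9%, 0.5%, 1.14%, 2.44%, 27.7%, 2.71% and 2.07% of all genes were called, in the order given. With slide as a random block, slide as a fixed block and session as a fixed block the shares were 0.0906%, 0.0725% and 0.0128%. The 2 fixed blocks tested only 47 and 64 members.

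Under median centring the medians of complexes I to V were 0.18, 0.25, 0.187, 0.083 and 0.164, complexes II and V gave 0.022 and -0.062 with the tumor channel, and complex II gave 0.202 with dimmed rows kept. Genes that turned were Cox8a (0.281, dimmed rows kept) and, under median centring, Atp5j (0.149), Atp5j2 (0.105), Cox4i1 (0.117), Cox5a (0.144), Cox5b (0.07), Cox6a1 (0.025), Cox7b (0.002), Cox7c (0.225), Cox8a (0.126), Ndufa2 (0.097) and Ndufb11 (0.119), and with background flags set missing Atp5j (0.013) and Ndufb11 (0.352). That last setting dropped bright probes of the members. Tested by themselves, the dimmest probes of Atp5j and Ndufb11 gave 0.02 and 0.35 in early against late. The values of these genes there can therefore be those of another probe. The cause of the other turns was not tested. With 1 array left out, counts ran from 12 to 32, 4 to 18 within HFD, 0 to 0 within HFD-LFD, for their difference and for HFD against LFD, and 2 to 10 among late groups (2 to 4 without LFD replicate 1 or 2, HFD Late replicate 2 or 3, HFD-LFD Late replicate 1 or 2, HFD-LFD Early replicate 3, or any LFD-HFD replicate); the medians of complexes I to V ran from -0.302 to -0.234, -0.24 to -0.195, -0.246 to -0.184, -0.43 to -0.336 and -0.288 to -0.225. For the fits with 1 array left out the shares of all genes called are not given here. No paired analysis was possible because the replicate numbers follow accession order and pair no tumors.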
